A study of Mus musculus with 24 samples.

Results

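The 32 genes described here make cholesterol and fatty acids or control that synthesis, out of 56748 genes in the count table. They were picked by gene name, and all 32 matched 1 gene each. Of these, 18 encode enzymes that build cholesterol from acetyl-CoA, 6 encode the regulators SREBP1, SREBP2, SCAP, INSIG1 and INSIG2 and the sterol carrier STARD4, and 8 encode enzymes that make, elongate or desaturate fatty acids. All 32 passed the filter on low counts and entered the fit among 15885 genes.

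Messenger RNA was sequenced from mouse T cells of wild-type genotype that had been polarised or activated in culture: Th1, Th17, regulatory T (Treg) and activated CD8 cells. Each cell type has 6 libraries, 1 with the vehicle DMSO and 5 with a kappa opioid receptor (KOR) agonist at 0.1 µM for up to 5 days, 24 libraries in all. KOR belongs to the opioid receptors, which signal through inhibitory G proteins. The 5 agonists derive from perhydroquinoxaline per the design text. They are called WMS-64, WMS-75, WMS-76, WMS-83 and WMS-200 here, by the number that the column names give. The protocol adds a suffix to each (WMS-83-02 and WMS-200-01, for example), and in the titles the suffix of all but WMS-76 changes from cell type to cell type, so that the compounds were matched by number. Every combination of cell type and treatment has a single library, nothing says whether libraries of a cell type came from separate animals, and the labels give no age, sex or strain. Errors and p-values therefore cover the spread between these libraries only.

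Cells make cholesterol from acetyl-CoA through mevalonate, squalene and lanosterol, and the mevalonate branch also supplies isoprenoids for protein prenylation. When sterols in the endoplasmic reticulum run low, SCAP escorts the SREBP transcription factors to the Golgi, where they are cleaved and go on to activate sterol and fatty acid genes, while the INSIG proteins hold SCAP back when sterols are plentiful. Activated T cells raise this synthesis to build membranes, and ACLY, which makes cytosolic acetyl-CoA from citrate, together with FASN and the acetyl-CoA carboxylase ACACA feeds the fatty acid arm.

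The promoters of 4 members are shown: Hmgcs1, Msmo1 and Srebf2 because they hold a form of the element that SREBP2 is known to bind, and Hsd17b7, which holds CCAAT of its partner NF-Y without that form, because it and Hmgcs1 belong to the genes with the smallest p for agonists in Treg. They run from 250 bases before to 50 bases after the start in RefSeq GRCm38.p6, at chr13:119690101-119690400 (plus strand) for Hmgcs1, chr8:64733529-64733828 (minus) for Msmo1, chr15:82147019-82147318 (plus) for Srebf2 and chr1:169969156-169969455 (minus) for Hsd17b7. Capitals mark TCACNCCA, a form of the sterol regulatory element, and CCAAT, the NF-Y motif, searched on both strands, so that ATTGG marks CCAAT on the other strand.
Hmgcs1: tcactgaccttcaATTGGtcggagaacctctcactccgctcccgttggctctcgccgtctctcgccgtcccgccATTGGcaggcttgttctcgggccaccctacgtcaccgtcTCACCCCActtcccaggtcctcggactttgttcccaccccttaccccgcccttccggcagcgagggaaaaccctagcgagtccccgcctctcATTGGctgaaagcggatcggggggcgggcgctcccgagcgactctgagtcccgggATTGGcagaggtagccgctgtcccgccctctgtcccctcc
Msmo1: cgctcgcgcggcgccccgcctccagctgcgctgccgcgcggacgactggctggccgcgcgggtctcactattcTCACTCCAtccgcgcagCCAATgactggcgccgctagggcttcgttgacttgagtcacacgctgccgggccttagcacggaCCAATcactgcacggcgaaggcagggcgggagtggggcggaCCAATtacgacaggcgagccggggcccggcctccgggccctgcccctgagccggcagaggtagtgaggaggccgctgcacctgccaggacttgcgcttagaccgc
Srebf2: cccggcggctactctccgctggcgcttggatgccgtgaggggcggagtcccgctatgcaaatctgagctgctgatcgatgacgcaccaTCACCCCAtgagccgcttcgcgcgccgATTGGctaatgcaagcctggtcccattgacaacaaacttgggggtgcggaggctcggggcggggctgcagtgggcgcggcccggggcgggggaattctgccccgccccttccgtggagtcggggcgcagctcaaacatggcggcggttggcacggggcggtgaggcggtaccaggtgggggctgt
Hsd17b7: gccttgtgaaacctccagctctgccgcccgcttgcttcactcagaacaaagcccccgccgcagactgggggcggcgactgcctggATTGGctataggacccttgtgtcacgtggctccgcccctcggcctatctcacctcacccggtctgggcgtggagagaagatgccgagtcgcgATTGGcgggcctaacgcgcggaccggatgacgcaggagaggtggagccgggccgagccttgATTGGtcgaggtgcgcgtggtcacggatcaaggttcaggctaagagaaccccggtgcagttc
Of the 25 members with a promoter in the table, 3 held TCACNCCA (Hmgcs1, Msmo1 and Srebf2), beside 4.97% of all 27025 genes. CCAAT stood in 20 of the 25 beside 41.1% of genes, and GGGCGG, the core bound by SP1 and also searched on both strands, in 21 beside 38.2%. In Hmgcs1 the element ends 130 bases before the start and CCAAT matches lie on the opposite strand, while in Msmo1 all matches lie on the gene's own strand. A match is a stretch of letters and was not tested for binding.

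Libraries held 15188284 to 21946887 counts. The lowest count of a member in any library was 15, and Fdps was the only member with fewer than 1000 counts in total. Expression is given as CPM, read counts made comparable between libraries by the trimmed mean of M-values (TMM) of edgeR. The cell types were checked against marker genes: Foxp3 lay at 162 to 357 CPM in Treg and at most at 38.0 elsewhere, Cd8a at 359 to 408 in CD8, Tbx21 at 183 to 220 in Th1 and 211 to 242 in CD8 but at most at 32.3 in Treg and Th17, and Il17f at 687 to 1012 in Th17 and at most at 3.45 elsewhere. Of the other Th17 markers, Ccr6 lay higher in Treg (41.6 to 71.9 CPM) than in Th17 (27.4 to 36.3), and Il23r was low in Th17 (1.86 to 3.42). Other listed markers also went against a label: Ifng was higher in CD8 (mean 1369 CPM) than in Th1 (592), Cxcr3 was lowest in Th1 (mean 16.7), and Il2ra had its lowest mean in Treg (1070). Outside CD8, Cd8a was highest in Th17, at 33.9 to 111 CPM, with means of 13.9 in Th1 and 7.27 in Treg. Cd8b1 had means of 242 CPM in CD8, 38.6 in Th17, 22.2 in Th1 and 6.03 in Treg. The part of this CD8 message in the differences of Th17 was not tested. One library titled Th17 with WMS-83 is Th1 by its other labels and its column and was taken as Th1; its Th1 markers summed to 943 CPM and its Th17 markers to 43.1. The Treg libraries stand apart in make-up, with 1.60 to 2.68% of counts in ribosomal protein genes against 8.60 to 11.4% elsewhere, and at least 0.934% in mitochondrial genes against at most 0.759%; their part in the differences of Treg was not tested. Within Treg the libraries fall by a WT number in the column names, which the labels do not explain: WMS-200 and DMSO carry 3, and the other 4 compounds carry 2. All Th1 libraries carry 4 and all CD8 libraries 2, and of the Th17 libraries DMSO carries 2, WMS-83 carries 3 and the rest carry 1. No other cell type carries 4 or 1. Differences of Th1 from any cell type therefore cannot be told apart from the number, nor can those of most Th17 libraries. In bulk libraries fewer cells of a type and less RNA per cell cannot be told apart.

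Levels per kilobase of transcript (RPKM, averaged over the 24 libraries) spanned a wide range. Scd2, a stearoyl-CoA desaturase, was highest at 96.0, followed by Srebf2, the gene of the sterol-sensing factor SREBP2, at 66.5. Among the enzymes that lead to mevalonate products, Hmgcs1, the HMG-CoA synthase, was highest at 22.1 and Fdps, the farnesyl diphosphate synthase, lowest at 0.507, the lowest of all 32. Between squalene and lanosterol, the epoxidase Sqle lay at 14.4 and the cyclase Lss at 4.19. Beyond lanosterol, the demethylase Cyp51 lay at 28.3 and the sterol reductase Tm7sf2 at 2.29. Insig2 was the lowest regulator at 8.48 and the desaturase Fads2 the lowest fatty acid gene at 1.96.

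**Figure D1:**
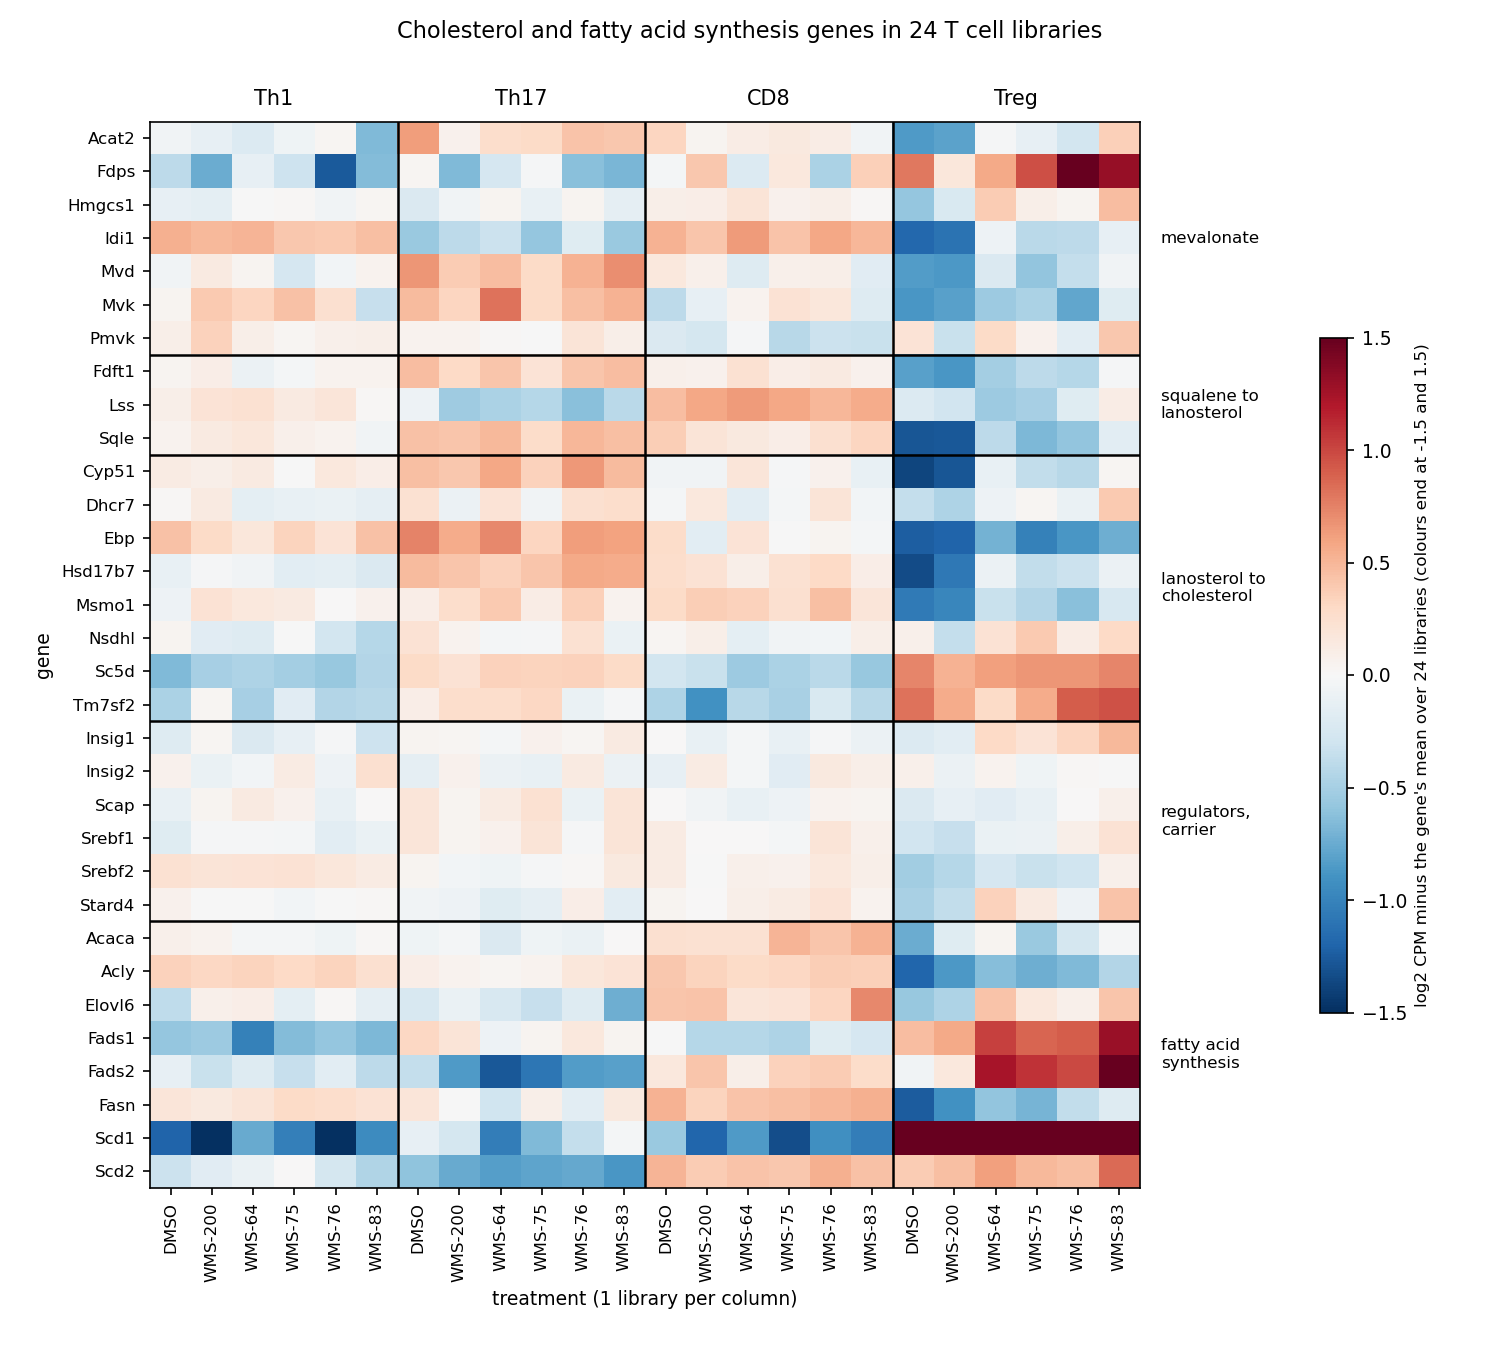
Log2 CPM of the 32 genes (rows, by role) in the 24 libraries (columns, by cell type and treatment), each gene minus its mean over all libraries; colours end at −1.5 and 1.5. Scd1 is highest in the Treg columns, and within Treg the DMSO and WMS-200 columns are lower than the other 4 for most genes (24 of 32).

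The first question is how the cell types differ. In an F-test among the 4 cell types, 27 of 32 members (84.4%) passed at an adjusted p of 0.05 in edgeR's quasi-likelihood test with Benjamini-Hochberg adjustment over all genes, beside 87.4% of all genes tested, so the members were called about as often as other genes. The 5 that did not pass were Hmgcs1 (adjusted p = 0.295), Stard4 (0.486), Insig2 (0.807), Dhcr7, the last reductase of the pathway (0.254), and Nsdhl, a sterol dehydrogenase (0.0508). All 6 Treg libraries lay above the other 18 for 3 members, Scd1, Sc5d and Fads1, beside 17.6% of all genes, and below them for 4, Acly, Ebp, Msmo1 and Sqle, beside 21.9%.

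Relative to the median gene, Treg carried less message for many sterol enzymes and for the acetyl-CoA and palmitate makers Acly and Fasn, and more for the desaturases Scd1, Fads1 and Fads2. Of the 18 sterol enzymes, 10 were lower and 4 higher in Treg than in Th1, beside 37.3% and 40.1% of all genes. Against Th17, 9 enzymes were lower and 3 higher (beside 36.5% and 38.3%), and against CD8 11 and 4 (beside 37.8% and 40.2%). Their median log2 fold change, Treg minus the other cell type, was −0.39, −0.40 and −0.51, beside 0.09, 0.09 and 0.08 for all genes. The enzyme medians depend on the Treg libraries used. Without the 2 of WT number 3 they were −0.18, −0.20 and −0.27, and without the 4 of WT number 2 −0.82, −1.03 and −0.91. With total counts in place of TMM the called enzymes fell on both sides, 5 lower and 7 higher than in Th1, 8 and 7 than in Th17, and 7 and 7 than in CD8, with medians of −0.03, −0.06 and −0.17 beside 0.45, 0.43 and 0.42 for all genes. The 8 fatty acid genes split with TMM: 3 were lower and 4 higher than in Th1, and 2 lower and 5 higher than in Th17. Against CD8, 4 were lower and 3 higher. The shares of all genes are those given for the sterol enzymes with TMM.

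Over all 32 members, 14 were lower in Treg than in Th1 (43.8%, beside 37.3% of all genes) and 9 higher (28.1%, beside 40.1%). Against Th17, 14 were lower (43.8%, beside 36.5%) and 8 higher (25%, beside 38.3%). Against CD8, 16 were lower (beside 37.8%) and 8 higher (25%, beside 40.2%). These splits depend on the scaling and on the Treg libraries used, and the shares of all genes under the alternatives are not given here. With total counts 7 members were lower and 17 higher than in Th1, 10 and 16 than in Th17, and 10 and 16 than in CD8. Without the 2 Treg libraries of WT number 3 the counts were 13 lower and 12 higher, 13 and 12, and 14 and 9. Without the 4 of WT number 2 they were 21 and 6, 21 and 5, and 20 and 4.

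Acly, Fasn, Ebp, Msmo1 and Sqle were lower, and Scd1, Sc5d and Tm7sf2 higher, in Treg than in each other cell type under all of these settings, and also with DESeq2 size factors, with ribosomal and mitochondrial genes left out of the TMM factors and with gene length offsets. Ebp, the sterol isomerase (chromosome X, 8051568 to 8059751, minus strand as the file gives it), had a lowest, median and highest CPM of 13.1, 16.0 and 18.8 in Treg, 34.6, 38.1 and 41.7 in Th1, 38.5, 47.1 and 51.4 in Th17, and 27.5, 31.1 and 37.1 in CD8. No Treg library reached the lowest of any other cell type, and the gap was widest to Th17. Its log2 fold change, Treg minus Th17, was −1.55 ± 0.09 (SE, n = 6 libraries each; adjusted p = 3.1e-14 with edgeR), with −1.27 ± 0.09 to Th1 and −1.01 ± 0.09 to CD8.

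Acly (chromosome 11, 100367179 to 100418826, minus strand) ran at 129, 181 and 217 CPM in Treg, 345, 366 and 373 in Th1, 301, 309 and 338 in Th17, and 359, 373 and 390 in CD8. All Treg libraries lay below all others, by −1.05 ± 0.08, −0.85 ± 0.08 and −1.09 ± 0.08 on the log2 scale against Th1, Th17 and CD8. Fasn, the fatty acid synthase, was lower by −0.86 ± 0.11, −0.64 ± 0.11 and −1.10 ± 0.11. It lay at 171 to 356 CPM in Treg, 449 to 495 in Th1, 331 to 459 in Th17 and 513 to 587 in CD8, so that Treg and Th17 overlapped. Sqle was lower by −1.12 ± 0.12 than in Th17, and its 6 Treg libraries at 31.4 to 68.0 CPM lay under the 73.4 to 107 of the rest. Mvk, the mevalonate kinase, was lower by −1.08 ± 0.14 than in Th17 (adjusted p = 1.8e-07 with edgeR).

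Idi1, the isopentenyl diphosphate isomerase, separated the cell types differently. It ran at 92.2, 97.3 and 102 CPM in Th1 and 93.4, 100.1 and 109 in CD8, but at 47.1, 50.7 and 62.1 in Th17 and 31.0, 53.1 and 66.8 in Treg. Th1 and CD8 lay above every Th17 and Treg library, while Treg and Th17 overlapped and did not pass (Treg minus Th17 −0.08 ± 0.13, adjusted p = 0.55 with edgeR). The fold changes were −0.98 ± 0.13 for Treg minus Th1 and −1.02 ± 0.12 for Treg minus CD8, and 0.89 ± 0.12 for Th1 minus Th17. Of its 50-base stretches, 21.3% also occur in another gene of the reference transcripts, chiefly a processed pseudogene, so its reads can be shared.

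Lss was highest in CD8, at 59.7, 64.3 and 67.8 CPM, then 43.8, 48.6 and 50.8 in Th1, 29.7, 36.7 and 46.9 in Treg and 28.1, 31.8 and 41.1 in Th17. CD8 stood above every other library, and Treg and Th17 overlapped (Treg minus Th17 0.16 ± 0.09, adjusted p = 0.12). CD8 minus Th17 was 0.97 ± 0.09 and Th1 minus Th17 0.57 ± 0.09, with adjusted p = 1.5e-09 and 1.4e-05 by edgeR. Fdps went the other way from most mevalonate enzymes, at 2.13, 3.48 and 5.98 CPM in Treg against 0.791, 1.32 and 1.74 in Th1, 1.18, 1.40 and 1.92 in Th17 and 1.36, 1.99 and 2.5 in CD8. Every Treg library but the lowest lay above all others, by 1.52 ± 0.27 against Th1, 1.33 ± 0.27 against Th17 and 0.91 ± 0.26 against CD8. The counts are few, 11.7% of its 50-base stretches occur in another gene, chiefly the overlapping Gm43738, and without the 4 Treg libraries of WT number 2 the calls against Th17 (0.70) and CD8 (0.31) are lost.

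Late sterol steps split too. Sc5d, the lathosterol desaturase (chromosome 9, 42162891 to 42175552, minus strand), ran at 92.3, 102 and 107 CPM in Treg, 74.4, 79.6 and 81.6 in Th17, 43.2, 47.3 and 53.1 in CD8 and 40.6, 45.3 and 47.3 in Th1. Treg lay above Th17 and Th17 above the other cell types without overlap, while Th1 and CD8 overlapped and did not pass (Th1 minus CD8 −0.09 ± 0.06, adjusted p = 0.40 with edgeR). Treg minus Th1 was 1.18 ± 0.06, Treg minus CD8 1.09 ± 0.06 and Treg minus Th17 0.35 ± 0.06.

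Tm7sf2 ran at 11.6, 15.3 and 18.4 CPM in Treg, 8.87, 10.8 and 11.8 in Th17, 6.73, 7.06 and 9.74 in Th1 and 5.06, 7.02 and 8.09 in CD8. The lowest Treg library lay just under the highest Th17 library, and above all Th1 and CD8 libraries. The differences were 1.17 ± 0.14 for Treg minus CD8, 1.01 ± 0.14 for Treg minus Th1 and 0.54 ± 0.14 for Treg minus Th17, each past the threshold with edgeR. Tm7sf2 overlaps Vps51 on the same strand in the reference annotation, so reads there could be counted for either.

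**Figure D2:**
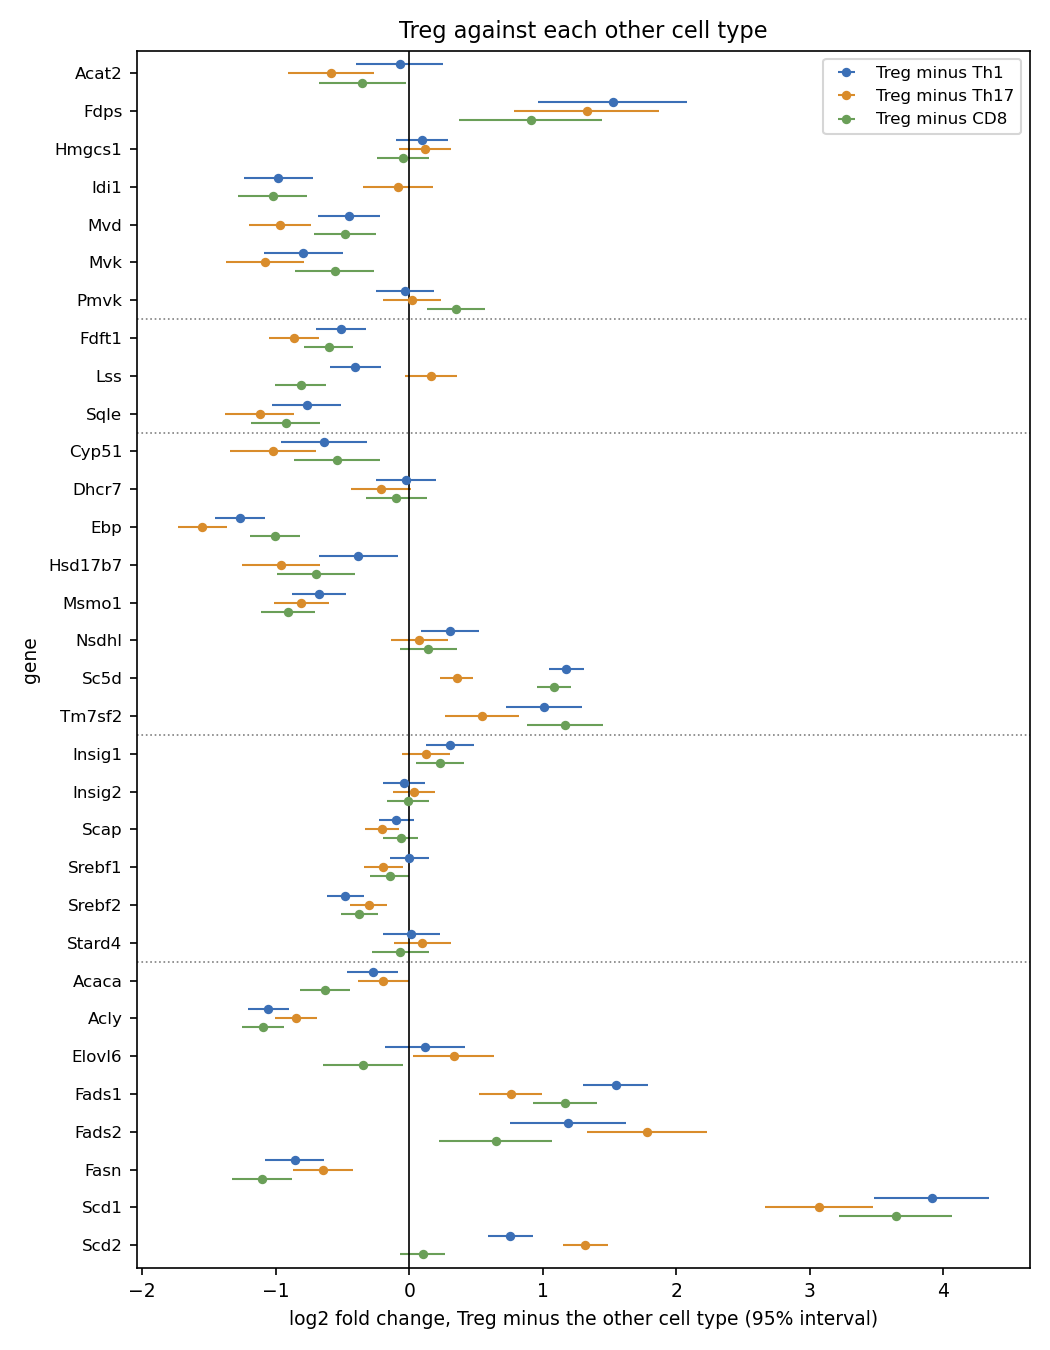
Log2 fold change of each gene, Treg minus Th1 (blue), Th17 (orange) and CD8 (green), with 95% intervals from the model; genes are grouped by role between dotted lines. Scd1 lies farthest to the right, at 3.07 to 3.91, and Ebp farthest to the left against Th1 (−1.27) and Th17 (−1.55); against CD8 that is Fasn (−1.10).

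Of the members, Scd1 differed most between Treg and each other cell type. The stearoyl-CoA desaturase that makes oleate (chromosome 19, 44382894 to 44396318, minus strand), ran at 26.0, 44.2 and 58.7 CPM in Treg, 3.26, 5.42 and 6.57 in Th17, 2.67, 3.41 and 4.56 in CD8 and 1.63, 3.11 and 3.98 in Th1. The lowest Treg library lay far above the highest of any other cell type. Treg was higher 15.0-fold than Th1 (log2 3.91 ± 0.21, adjusted p = 2.7e-14 with edgeR), 8.39-fold than Th17 (3.07 ± 0.20) and 12.5-fold than CD8 (3.64 ± 0.20).

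Scd1 is abundant in adipocytes, so adipose and stromal markers were summed over 6 genes. They came to 2.35 to 3.65 CPM in Treg and 0.248 to 1.98 elsewhere. Adipoq, which defines adipocytes, lay at 0.0457 to 0.690 CPM in Treg and at most at 0.0640 in the other cell types. B cell markers summed to 7.26 to 11.8 CPM in Treg, 2.87 to 6.61 in Th1, 2.23 to 5.00 in Th17 and 5.64 to 10.5 in CD8. Myeloid markers summed to 9.06 to 12.7 in Treg, 12.6 to 16.8 in Th1, 10.2 to 17.8 in Th17 and 20.4 to 25.5 in CD8. The part of the adipose, stromal, B cell and myeloid markers in the result was not tested. Of the 50-base stretches of Scd1, 4.66% occur in another gene, chiefly the paralog Scd3.

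Scd2, its paralog and the most abundant member per length, followed another order. It ran at 641, 679 and 882 CPM in Treg, 636, 662 and 708 in CD8, 360, 422 and 493 in Th1 and 267, 285 and 322 in Th17. Treg and CD8 overlapped and did not pass (Treg minus CD8 0.10 ± 0.08, adjusted p = 0.26 with edgeR), and both lay above Th1, which lay above Th17. CD8 minus Th17 was 1.22 ± 0.08, Treg minus Th17 1.32 ± 0.08 and Th1 minus CD8 −0.66 ± 0.08.

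Fads1 and Fads2 insert double bonds into polyunsaturated fatty acids. Fads1 ran at 25.2, 33.8 and 44.7 CPM in Treg, 17.4, 19.6 and 22.7 in Th17, 13.3, 14.5 and 18.2 in CD8 and 9.02, 11.9 and 12.5 in Th1, so that Treg stood above all others. Treg minus Th1 was 1.55 ± 0.12, Treg minus CD8 1.16 ± 0.12 and Treg minus Th17 0.76 ± 0.11. Without the 4 Treg libraries of WT number 2 the last falls to 0.23 and is no longer called.

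Fads2 ran at 5.45, 11.6 and 18.3 CPM in Treg, 6.03, 7.02 and 7.56 in CD8, 4.32, 4.70 and 5.20 in Th1 and 2.35, 3.15 and 4.42 in Th17. The lowest Treg library lay under all CD8 libraries and the next among them, and Treg was above Th1 and Th17 throughout. Treg minus Th17 was 1.78 ± 0.22, Treg minus Th1 1.19 ± 0.21 and Treg minus CD8 0.65 ± 0.21, the last turning to −0.36 without the libraries of WT number 2.

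**Figure D3:**
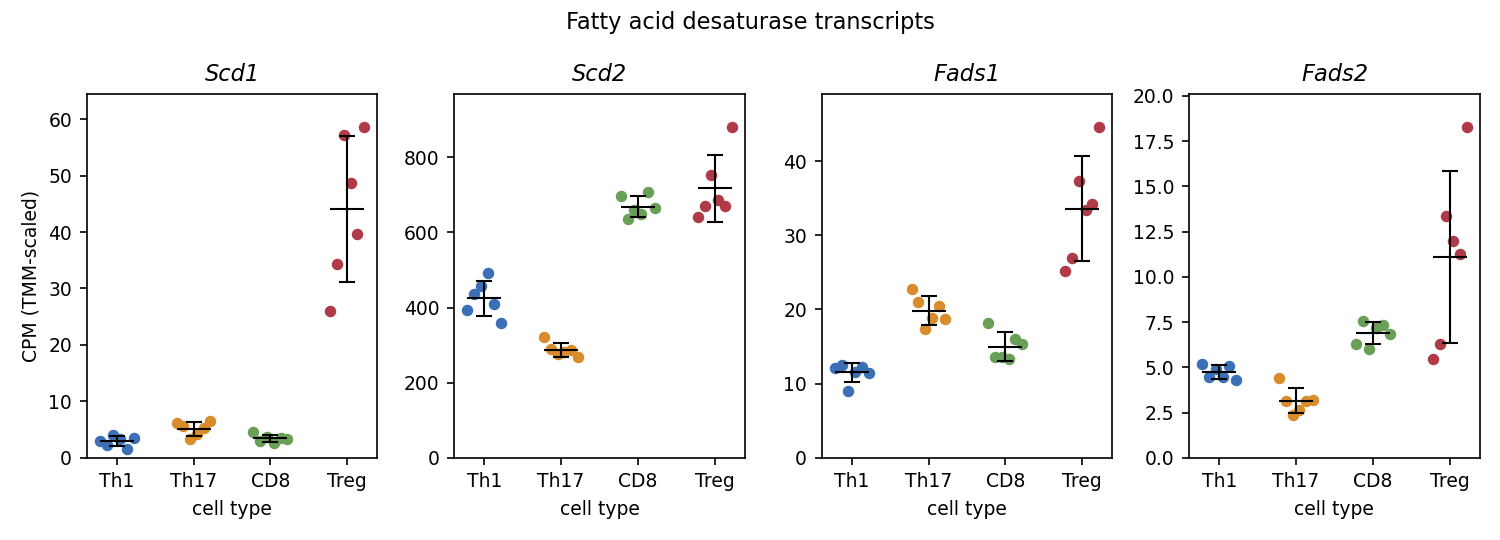
CPM (linear axes from 0) of Scd1, Scd2, Fads1 and Fads2 by cell type, 1 point per library, with the mean and SD (n = 6). Treg points of Scd1 (26.0 to 58.7 CPM) clear all others, while those of Scd2 overlap CD8.

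The regulators differed less. Srebf2 (chromosome 15, 82031382 to 82089580, plus strand) ran at 330, 381 and 497 CPM in Treg, 516, 543 and 552 in Th1, 452, 474 and 525 in Th17 and 470, 502 and 529 in CD8, with the highest Treg library inside the Th17 and CD8 ranges. Treg was lower than Th1 by −0.48 ± 0.07, Th17 by −0.30 ± 0.07 and CD8 by −0.37 ± 0.07 (adjusted p = 4.9e-07, 0.00028 and 1.9e-05 with edgeR). With total counts none of the 3 is called, and the difference to Th17 turns to 0.04.

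Srebf1, which encodes SREBP1, ran at 128, 152 and 189 CPM in Treg, 162, 178 and 187 in Th17, 160, 168 and 186 in CD8 and 144, 156 and 161 in Th1, with wide overlap. It passed for Treg minus Th17 (−0.19 ± 0.07, adjusted p = 0.018) and Th1 minus Th17 (−0.20 ± 0.07, 0.028) in edgeR. The first call is lost with total counts (0.15) and without the Treg libraries of WT number 3 (−0.10). Scap ran at 116, 124 and 142 CPM in Treg, 125, 137 and 147 in Th1, 125, 150 and 158 in Th17 and 124, 132 and 139 in CD8. It passed for Treg minus Th17 (−0.20 ± 0.06), which became 0.14, called the other way, with total counts.

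Insig1, itself a well-known SREBP target, ran at 53.4, 73.0 and 85.7 CPM in Treg, 60.1, 62.9 and 67.3 in Th17, 56.6, 58.8 and 61.7 in CD8 and 49.3, 54.8 and 62.5 in Th1. Its Treg libraries spanned both sides of the rest, and it passed for Treg minus Th1 (0.31 ± 0.09) and Treg minus CD8 (0.23 ± 0.09), with −0.10 and −0.18 without the libraries of WT number 2. Leaving out any 1 of 6 libraries also ended the call against CD8, at 0.14 to 0.20 higher in Treg. Insig2 (27.6, 29.5 and 30.9 CPM in Treg, 27.5, 29.7 and 34.6 in Th1, 26.7, 27.6 and 32.2 in Th17, 26.1, 30.0 and 32.5 in CD8) and Stard4 (47.3, 67.5 and 89.1, 64.3, 65.8 and 69.3, 58.5, 61.6 and 71.0, and 66.4, 69.7 and 76.1 in the same order) passed in no pair.

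Outside Treg, Th17 stood apart from Th1 and CD8, whose WT numbers differ from that of most Th17 libraries. For Th1 minus Th17, 6 members were higher (18.8%, beside 24.1% of all genes) and 12 lower (37.5%, beside 23.2%), with a median of −0.18 beside 0.02. Among the 8 enzymes from lanosterol to cholesterol none was higher and 5 were lower in Th1, and of the 18 sterol enzymes 2 were higher, Idi1 and Lss, and 9 lower, such as Sc5d (−0.82 ± 0.06), Hsd17b7, a reductase of sterol demethylation (−0.58 ± 0.14), and Mvd, which makes isopentenyl diphosphate (−0.52 ± 0.11). Fads1 (−0.79 ± 0.12) and Scd1 (−0.84 ± 0.22) were lower in Th1 as well, and Scd2 (0.56 ± 0.08) and Fads2 (0.59 ± 0.22) higher. The calls of Fads2, Srebf1 and Srebf2 (0.18 ± 0.07) in this pair were easily lost. Leaving out any 1 of 8, 5 and 9 libraries in turn ended them, with values of 0.50 to 0.58, −0.18 to −0.17 and 0.16 to 0.18.

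For CD8 minus Th17, 8 members were higher (25%, beside 24.3%) and 10 lower (31.3%, beside 22.8%). The fatty acid genes made up most of the first set, with 6 of 8 higher in CD8, among them Scd2 (1.22 ± 0.08), Fads2 (1.13 ± 0.22), Elovl6, which elongates palmitate (0.68 ± 0.15), and Fasn (0.46 ± 0.11). Of the 18 sterol enzymes 8 were lower in CD8, among them Sc5d (−0.73 ± 0.06), Tm7sf2 (−0.62 ± 0.14) and Ebp (−0.54 ± 0.09), and 2 higher, Lss and Idi1 (0.94 ± 0.12). Scd1 was lower (−0.58 ± 0.21), a call that ended when any 1 of 8 libraries was left out, at −0.57 to −0.49. With the WT number as a block the calls of Fads2 (0.38) and Tm7sf2 (−0.49) ended. Number 1 occurs only in Th17, so that fit takes Th17 from its DMSO and WMS-83 libraries alone. Its shift for number 3 draws on Treg, so it is a weak check of this pair. Fads2 lay at 2.35 to 4.42 CPM in Th17 and at 6.03 to 7.56 in CD8.

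Th1 and CD8 were the closest pair. For Th1 minus CD8, 2 members were higher (6.25%, beside 7.26% of all genes), Pmvk, the phosphomevalonate kinase (0.38 ± 0.11), and Ebp (0.26 ± 0.09). The 5 lower members (15.6%, beside 8.69%) were Scd2 (−0.66 ± 0.08), Elovl6 (−0.47 ± 0.15), Lss (−0.41 ± 0.09), Fads1 (−0.38 ± 0.12) and Acaca (−0.36 ± 0.09). The call of Pmvk ended without the Th1 WMS-200 library (0.30), that of Ebp without any 1 of 15 libraries (0.22 to 0.27) and that of Elovl6 without any 1 of 6 (−0.46 to −0.40). Of Acaca's 50-base stretches, 52.6% occur in another gene, chiefly a processed pseudogene, so its counts are uncertain.

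Genes next to the pathway also differed between Treg and the rest. Against CD8, the pair with most calls, the 11 genes of sterol efflux, uptake and storage had 6 higher and 3 lower in Treg, beside 40.2% of all genes higher and 37.8% lower; the largest rise was that of Mylip, which marks lipoprotein receptors for degradation (1.44), and the largest fall that of Npc2, a lysosomal sterol carrier (−2.18). Abca1 and Abcg1, the sterol exporters, were higher in Treg than in CD8 by 1.27 and 1.17. Of 10 genes of SREBP processing and sterol-regulated degradation, 2 were higher and 7 lower, with Mbtps1, a protease that cleaves SREBP, among the higher (0.68). Of 12 genes of the isoprenoid branches none was higher and 8 were lower, Nus1, of dolichol synthesis, most (−0.91).

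Of 9 genes that supply carbon or control carboxylation, 4 were higher and 5 lower in Treg than in CD8, beside the same 40.2% and 37.8% of all genes. They ran from Acacb, the mitochondrial acetyl-CoA carboxylase (2.05 ± 0.24), to the malic enzyme Me1 (−4.46 ± 0.83). Of 11 further elongation and desaturation genes, 2 were higher and 5 lower, with Hacd1 at −5.04 ± 0.54. The 2 higher were Scd4 (1.92 ± 0.48) and Scd3 (1.08 ± 0.45, adjusted p = 0.033 with edgeR), both with wide errors. So the paralogs Scd1, Scd3 and Scd4 were all higher in Treg than in CD8, and Scd2 was not called.

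The stated subject of the series is what KOR agonists do to T cells. With the 5 agonists set together against DMSO over the 4 cell types, 0 members were called, beside 0.0% of all genes higher and 0.0% lower. At an unadjusted p under 0.05 there were 2 members, Hmgcs1 (0.24 ± 0.09, interval 0.05 to 0.43) and the methylsterol oxidase Msmo1 (0.22 ± 0.09), both with adjusted p = 0.99 in edgeR, and the next was Mvk (0.23 ± 0.14). DESeq2 and limma-voom called 0 members. Of the 32 intervals at 95%, 27 stayed under 0.5 (log2) on both sides of 0, and all 32 under 1.

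Single compounds against DMSO also called 0 members each, beside 0.0% of all genes in every case, and an F-test among the 5 agonists called 0 (0.0%). Unadjusted, 0 members were under 0.05 with WMS-200, with WMS-75 and with WMS-76. There were 3 under WMS-64 (Hmgcs1 0.35 ± 0.12, Msmo1 0.32 ± 0.12 and Idi1 0.33 ± 0.15) and 2 under WMS-83 (Hmgcs1 0.30 ± 0.12 and Acaca 0.24 ± 0.11). These comparisons share the DMSO libraries. Over the 5 compounds, all 160 intervals lay within 1 of 0 and 119 within 0.5.

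The 10 pairs of agonists, at the same dose, called 0 of 32 members each. Beside this stand 0.0% of all genes in every pair and direction but 1, WMS-200 above WMS-76 with 0.0063%. Unadjusted, Idi1 was lower with WMS-200 than with WMS-64 (−0.32 ± 0.15, adjusted p = 0.91 in edgeR), and with WMS-200 against WMS-83 Srebf2 (−0.19 ± 0.08), Fasn (−0.29 ± 0.13) and Fdft1, the squalene synthase (−0.24 ± 0.11), were under 0.05 (adjusted p = 0.95). Of 320 intervals, 319 lay within 1 of 0 and 260 within 0.5, the widest being that of Fdps (−1.04 to 0.32 for WMS-200 minus WMS-75). A p that misses the threshold does not show that the compounds act alike.

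**Figure D4:**
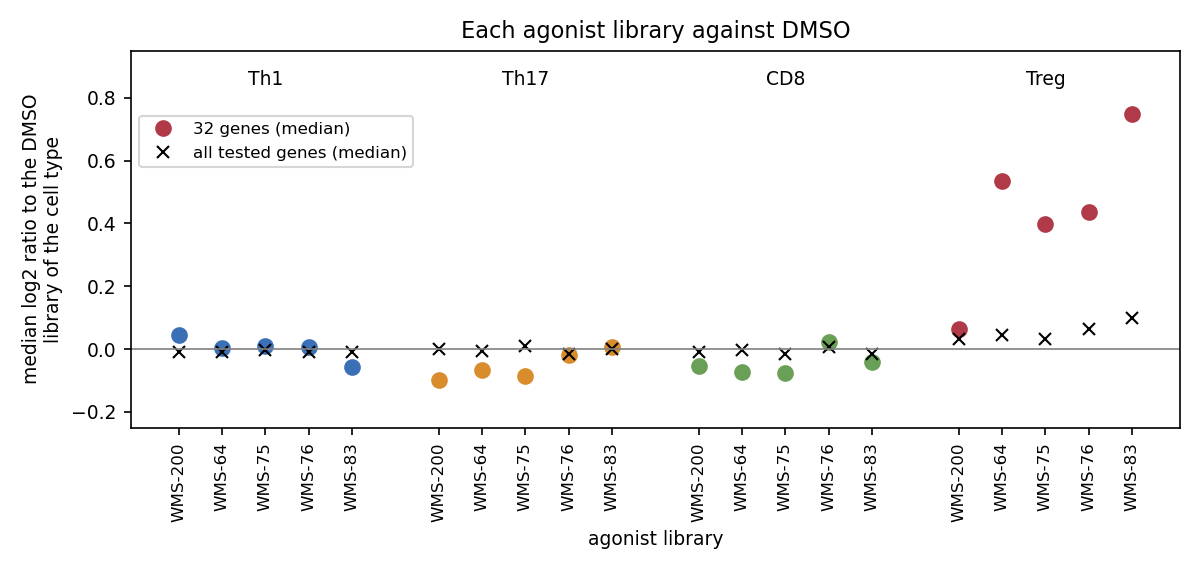
Median log2 ratio of each agonist library to the DMSO library of its cell type, over the 32 genes (dots) and over all tested genes (crosses). Dots for Th1, Th17 and CD8 lie between −0.10 and 0.05, and those for Treg at 0.06 with WMS-200 and 0.40 to 0.75 with the other 4.

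Within a cell type the 5 agonist libraries were set against the lone DMSO library, which was assumed to vary like the others. In Th1, 0 members were called with edgeR (beside 0.0% of genes higher and 0.0% lower), in Th17 0 (beside 0.0126% and 0.0252%) and in CD8 0 (beside 0.0% and 0.0063%); unadjusted counts were 0, 1 and 0. The 1 in Th17 was Lss, at 41.1 CPM in DMSO and 28.1 to 32.8 with the agonists (−0.41 ± 0.15). Against DMSO, the members' median log2 ratio for a single compound ran from −0.10 to 0.05 in these 3 cell types.

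In Treg 9 members were higher with the agonists (28.1%, beside 7.64% of all genes) and 0 lower (beside 1.18%), with a median of 0.45 beside 0.07. Hmgcs1 lay at 67.1 CPM with DMSO, 86.0 with WMS-200, 132 with WMS-64, 107 with WMS-75, 104 with WMS-76 and 139 with WMS-83. The DMSO library was lowest and WMS-200 next, and the fold change was 0.76 ± 0.16 (adjusted p = 0.0048 with edgeR). Hsd17b7 lay at 13.0, 15.5, 30.8, 25.3, 26.3 and 30.9 CPM in the same order, with DMSO and WMS-200 close together and far below the rest (0.99 ± 0.22, adjusted p = 0.0076).

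Acly, at 129, 161, 188, 176, 185 and 217 CPM, and Fasn, at 171, 216, 270, 251, 315 and 356, were lowest with DMSO and next with WMS-200, and rose by 0.53 ± 0.12 and 0.72 ± 0.18 for the agonists together. Cyp51 lay at 46.0 and 48.9 CPM with DMSO and WMS-200 and at 89.5 to 122 with the others (1.01 ± 0.29), and Fads2 at 5.45 and 6.29 against 11.2 to 18.3 (1.17 ± 0.34). Idi1 (0.80 ± 0.23), Stard4 (0.60 ± 0.18) and Acaca (0.57 ± 0.15) complete the 9. The calls of Cyp51, Fads2, Idi1 and Stard4 depend on single libraries and settings: they ended without the WMS-64 library (0.93, 1.13, 0.71 and 0.53) and without the WMS-83 library (0.88, 0.97, 0.73 and 0.51). The call of Cyp51 also ended without the WMS-75 (1.00) or WMS-76 (1.01) library of Treg, the WMS-64 library of Th1 (1.00) or the WMS-75 library of CD8 (1.00). With gene length offsets all 4 calls ended (0.88, 1.03, 0.67 and 0.53). Without WMS-200, 18 members were called, and 5 without WMS-64 or without WMS-83.

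The WT number cuts across this comparison. The DMSO and WMS-200 libraries of Treg carry number 3 and the other 4 number 2, so the number cannot be told apart from the 4 compounds. The median log2 ratio of the members to DMSO was 0.06 with WMS-200 (21 of 32 above DMSO), 0.53 with WMS-64 (27), 0.40 with WMS-75 (27), 0.44 with WMS-76 (29) and 0.75 with WMS-83 (30). With the WT number as a block, which leaves WMS-200 against DMSO in Treg, 0 members were called. In CPM summed over the 18 sterol enzymes the libraries lay at 509 with DMSO, 504 with WMS-200, 751 with WMS-64, 678 with WMS-75, 678 with WMS-76 and 853 with WMS-83.

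**Figure D5:**
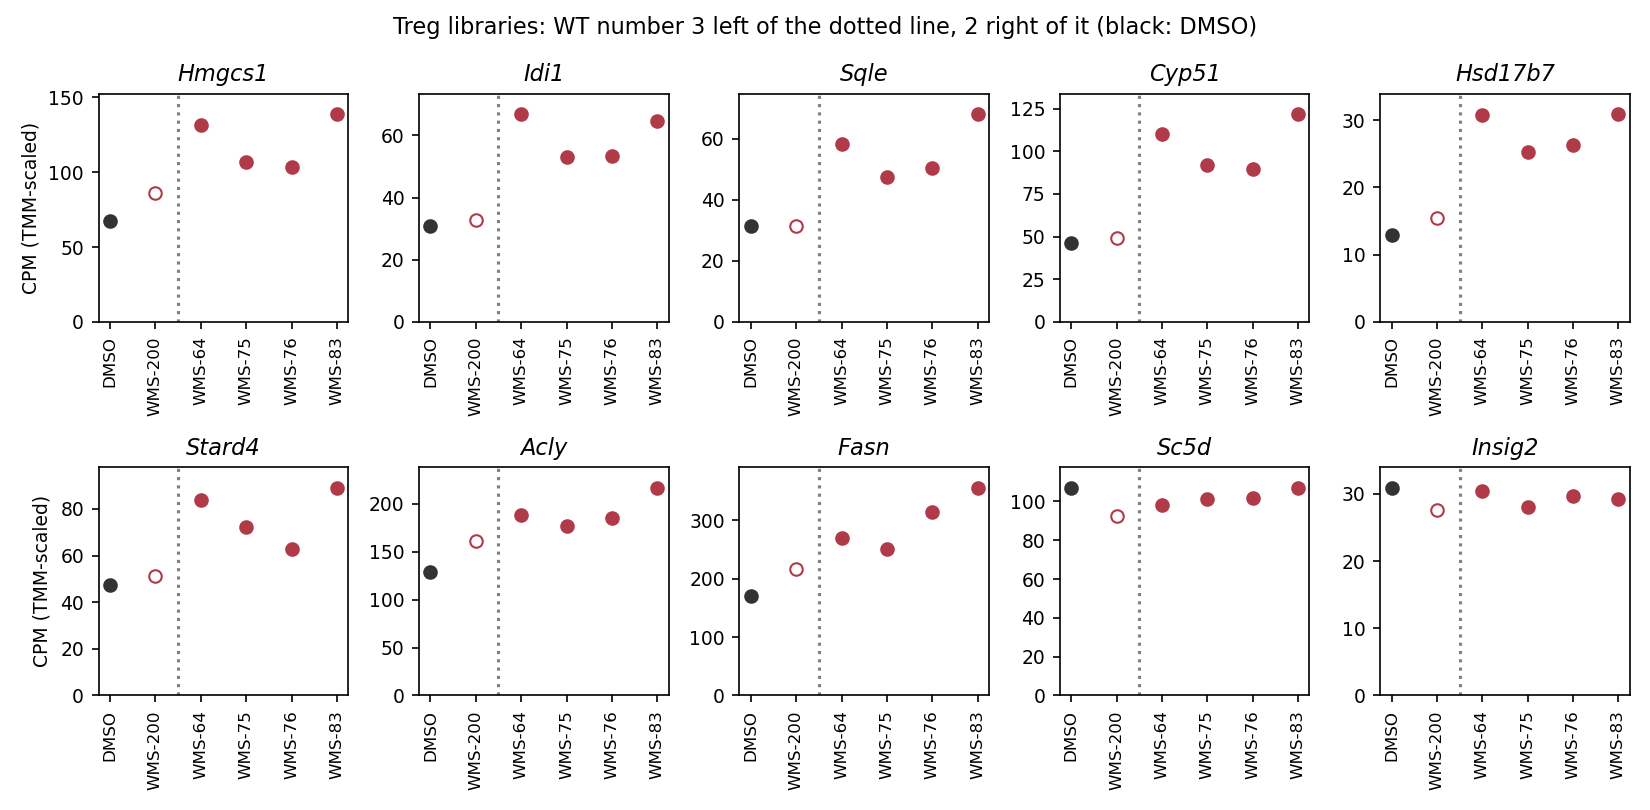
CPM (linear axes from 0) of 10 genes in the 6 Treg libraries by treatment, with WT number 3 left of the dotted line (DMSO black, WMS-200 open) and number 2 right of it. DMSO and WMS-200 lie below the other 4 for every gene drawn but Sc5d and Insig2.

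Set against each other, the 4 Treg libraries of number 2 had 22 members higher than the 2 of number 3 (68.8%, beside 14.7% of all genes) and 0 lower (beside 6.03%), a comparison chosen after the split had been seen. Cyp51 (1.12 ± 0.10), Hsd17b7 (0.99 ± 0.11), Idi1 (0.90 ± 0.11) and Sqle (0.84 ± 0.11) were higher. For 24 of 32 members both number 3 libraries lay below all 4 of number 2, beside 21.3% of all genes, and for 0 above, beside 15.9%. Lss (−0.01 ± 0.13) and Insig2 (0.01 ± 0.11) were close to 0. Other genes moved with the number: all 13 proliferation genes were higher, with sums of 1913 to 2141 CPM in number 3 and 2932 to 3717 in number 2, and of the 5 Treg markers Foxp3 (0.83 ± 0.20), Il2ra (0.79 ± 0.11), Ctla4 (0.54 ± 0.10) and Lrrc32 (1.24 ± 0.15) were higher and Ikzf2 lower (−0.98 ± 0.13). Their part in the result was not tested.

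Whether the agonist effect differs between cell types was tested by the interaction. It called 0 of 32 members with edgeR, beside 0.176% of all genes, and 12 at an unadjusted p under 0.05, with Acly (adjusted p = 0.11), Fasn (0.14) and Hsd17b7 (0.14) nearest. DESeq2 called 2, Acly and Fasn, and without the Treg WMS-200 library edgeR called 10. In that last fit all Treg agonist libraries carry WT number 2 and DMSO carries 3, so its count cannot be told apart from the number. The share of all genes called in it is not given here.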

How the data were processed

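Mouse T cells of 4 types under 6 treatments gave 24 poly(A) libraries, 1 for each combination. What the authors deposited is a table of raw counts of reads on each gene, for which the submitters' processing notes name featureCounts, HISAT2 and fastp. The sources used here give no version, genome build, annotation or strand setting. Coordinates are the file's own; RefSeq promoters are on GRCm38.p6, where 0 of 32 members start at the file's position.

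Counts were filtered with filterByExpr by cell type (minimum count 10; 15885 of 56748 genes kept), scaled by TMM and tested by edgeR's quasi-likelihood F-test (version 4.0.16, R 4.3.3, robust) on all libraries. One model held cell type and treatment (15 residual degrees of freedom), the other cell type crossed with agonist or DMSO (16). Benjamini-Hochberg adjustment ran over every gene kept, at 0.05. Errors of fold changes are standard errors and intervals are at 95%. Single-compound ratios within a cell type added 0.1 CPM, with no test.

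Alternatives were other scalings and filters, gene length offsets, DESeq2 1.42.0, limma-voom (limma 3.58.1), the WT number as a block, and each library left out. Stretches shared with other genes were counted as 50-mers in GENCODE M21 transcripts. Named members were the 3 largest called differences in each direction of a pair, the 3 smallest p for agonists, the level extremes of each role and all regulators. Members and lists were chosen with earlier results of these data known. The main models were tested on simulated data. All value columns matched a labelled sample.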

Additional observations from a re-analysis of the deposited data

Results flagged for a closer look

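Of 128 groups of 6 libraries (32 members in 4 cell types), 3 held a library far from the other 5, and chance alone flags about 1 in 20 such groups. Pmvk, the phosphomevalonate kinase, was at 19.2 CPM in the Th1 WMS-200 library and at 15.4 to 16.1 in the other Th1 libraries. Lss, the lanosterol synthase, was at 41.1 CPM in the Th17 DMSO library and at 28.1 to 32.8 with the agonists. Fads1, a fatty acid desaturase, was at 9.02 CPM in the Th1 WMS-64 library and at 11.5 to 12.5 in the others.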

How the results depend on the processing

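Over the alternatives, 3514 of 3693 values of single members kept their direction and side of the threshold, 108 lost the call, 54 gained it and 17 changed direction, and 669 of 685 counts of called members stayed within 1.5 times. The cause of the changes was not tested. With total counts, Srebf1 was at −0.15 for Th17 minus Treg and −0.19 for CD8 minus Treg, Srebf2 at −0.041 for Th17, Scap at −0.27, −0.14 and −0.27 for Th1, Th17 and CD8 minus Treg, Insig2 at −0.32 for Th1 and −0.33 for CD8, and Stard4 at −0.27 for CD8. With gene length offsets Insig2 was at −0.17 for Th1 and −0.20 for CD8. Without the 4 Treg libraries of WT number 2, chosen after seeing the data, Srebf1 was at 0.27 for Th1 minus Treg, Insig1 at 0.10, 0.31 and 0.18 for Th1, Th17 and CD8, and Stard4 at 0.46 and 0.40 for Th1 and Th17.

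For Th1 against CD8, 16 members were called in place of 7 when only those 12 libraries were fitted, and 4 to 10 when 1 library was left out, the 4 without the Th1 WMS-83 library. With no filter on low counts, 1 member, Cyp51, was called for WMS-64 against DMSO, 1 among the agonists and 1 for any pair of agonists. In Th17 the WT block leaves the WMS-83 library against DMSO, with the shift of number 3 taken from Treg. Its result there therefore cannot be told apart from the split by number within Treg. Cyp51 and Hsd17b7, called in Th17 only with the block, lay at 166 and 48.1 CPM with WMS-83 and at 163 and 45.4 with DMSO. For agonists in Treg the count was 9, and 14 with no filter, 5 with length offsets, 0 with the WT block, 22 for WT number 2 against 3 (also chosen after seeing the data) and 5 to 18 with 1 library left out, the 5 without WMS-64 or WMS-83 and the 18 without WMS-200. The interaction gave 10 with no filter, 2 with DESeq2 and 0 to 10 with 1 library left out, in place of 0. With 1 left out, the 10 came without the Treg WMS-200 library, where the WT number and the agonists cannot be told apart in Treg. The same holds for the 18 called for agonists in Treg. Except for WT number 2 against 3, given above, the shares of all genes called under these alternatives are not given here. DMSO in a cell type could not be left out of the within-cell-type comparison, since it is the only library of its kind.

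One library per combination limits every test of a compound within a cell type, and the labels give no replicate numbers, so that the only block fitted was the WT number of the column names. Members that share sequence with pseudogenes or paralogs (Acaca, Acat2, Idi1) and the low counts of Fdps are the least certain.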
